A study of Mus musculus with 8 samples.

Results

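The Arp2/3 complex is the set of 9 genes described here, Actr2, Actr3, Arpc1a, Arpc1b, Arpc2, Arpc3, Arpc4, Arpc5 and Arpc5l, out of 55487 genes in the deposited table. The complex was chosen on a measured value: Arpc1b stands on the study's list of transcripts differing between immobilized mice given wild-type MOTS-c and those given K14Q MOTS-c. The wild-type libraries are not analysed here, so that difference is not tested, and all values below come from K14Q MOTS-c muscle. In each of the 8 libraries all 9 genes reached 10 counts, the minimum for testing, as did 15135 genes of the table. RNA-seq was performed on skeletal muscle of 8 male C57BL/6J mice aged 10 weeks, with both hindlimbs held in casts for 8 days. MOTS-c is a microprotein encoded in mitochondrial DNA and K14Q is its naturally occurring variant, given intraperitoneally to every mouse at 15 mg/kg/day in 2 injections a day. The 8 mice form a single condition, so mice were compared with one another and genes with one another, and no treated mouse had an untreated counterpart.

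Arp2/3 nucleates a new actin filament from the side of an existing one and so builds branched actin networks. The actin-related proteins Arp2 (Actr2) and Arp3 (Actr3) form the first pair of the new filament, Arpc2 and Arpc4 form the core that grips the existing filament, and Arpc1, Arpc3 and Arpc5 complete the complex. Arpc1 exists as the isoforms Arpc1a and Arpc1b and Arpc5 as Arpc5 and Arpc5l, each from a gene of its own, and Arpc1b is prominent in blood cells. The complex is switched on by proteins of the WASP and WAVE families. In muscle, branched actin lies at the cell cortex, at membranes and in the many non-fibre cells of the tissue rather than in the sarcomere.

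The libraries held 23985356 to 33012497 counts, and the 10 most abundant genes took 18.8% to 26.2% of them. The labels name vastus lateralis as the tissue while the study's design text and methods name gastrocnemius. Each of 10 fast muscle fibre markers was among the 95 most abundant genes, led by the myosin heavy chain Myh4 at rank 1, which checks the tissue as fast skeletal muscle without telling those muscles apart. Bulk muscle also held RNA of other cells. All 12 macrophage, 8 fibroblast and 8 endothelium markers reached that minimum, but 0 of 4 neutrophil and 0 of 4 T cell markers did. The summed normalized count of the macrophage list ran from 2780 to 6797 across mice, that of the fibroblast list from 10294 to 19186 and that of the endothelium list from 4305 to 6031. In bulk tissue, fewer cells of a type and less RNA per cell cannot be told apart.

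Arpc1a and Arpc1b are neighbours on the + strand of chromosome 5. In GRCm38, Arpc1a spans chr5:145083830-145108761 and Arpc1b spans chr5:145114215-145130705, with 5453 bases and 0 annotated genes between them. Arpc3 lies on the same chromosome at chr5:122391878-122414184. The 200 bases that end 51 bases before each RefSeq gene start (GRCm38.p6, + strand, 5′ to 3′) are shown for these 3 genes, because the first pair are the paralogues compared below and because Arpc3 was the subunit closest to Arpc1a across mice. Capitals mark GGGCGG or its reverse complement in Arpc1b, and GCATGCGC in Arpc3, the 2 motifs searched on both strands. The windows are chr5:145083619-145083818, chr5:145114006-145114205 and chr5:122391628-122391827.
Arpc1a: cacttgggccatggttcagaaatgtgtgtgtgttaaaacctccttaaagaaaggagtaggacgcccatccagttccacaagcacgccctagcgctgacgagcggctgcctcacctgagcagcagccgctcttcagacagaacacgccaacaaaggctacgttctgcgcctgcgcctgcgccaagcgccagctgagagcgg
Arpc1b: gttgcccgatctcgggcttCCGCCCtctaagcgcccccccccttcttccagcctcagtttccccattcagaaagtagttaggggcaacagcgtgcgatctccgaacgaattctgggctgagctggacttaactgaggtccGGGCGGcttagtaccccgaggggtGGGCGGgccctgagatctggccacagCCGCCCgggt
Arpc3: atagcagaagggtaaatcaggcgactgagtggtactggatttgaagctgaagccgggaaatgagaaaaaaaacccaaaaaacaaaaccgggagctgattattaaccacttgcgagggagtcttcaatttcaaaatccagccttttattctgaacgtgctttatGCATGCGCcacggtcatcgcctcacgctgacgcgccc

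RefSeq promoters were matched for 8 of the 9 genes, all but Arpc5l. The Arpc2 window, chr1:74236267-74236466, lies within the gene as annotated in GENCODE, where Arpc2 spans chr1:74236084-74268209. The Arpc1b window held 4 GGGCGG matches and the neighbouring Arpc1a window held 0. GC content was 63.5% in the Arpc1b window, 58.5% in the Arpc1a window and 47.0% in the Arpc3 window, against a median of 51.5% over 32851 promoters. CpG dinucleotides numbered 14, 13 and 11 in the same order, against a median of 4. GGGCGG was found in 5 of the 8 windows (Arpc1b, Arpc2, Arpc5, Actr2 and Actr3) and in 24.6% of all promoters. GCATGCGC was found in 3 (Arpc2, Arpc3 and Actr3) and in 1.39% of all promoters, and the pair of matches in Arpc2 overlap each other. These are matches of letters in motifs chosen after the windows were read, and say nothing of a factor bound there.

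Actr2, the Arp2 subunit, had a normalized count of 993 in the lowest mouse, a median of 1159 and 1292 in the highest, with a mean of 1152 ± 96.5 (SD, n = 8). A normalized count is the number of reads of a gene divided by a size factor of the library. Actr3, the Arp3 subunit, ran from 1031 through a median of 1185 to 1577, with a mean of 1222 ± 183 (SD, n = 8). Its highest mice were 5 and 7, while mouse 5 was the lowest for Actr2. Its own paralogue Actr3b, which encodes another Arp3 form known mainly from brain, was at 212 ± 43.7 (SD, n = 8) and made up 24.9% ± 4.46 of Actr3 plus Actr3b per kilobase of exon. The Actr3b share was 18.0% with the longest transcript or the longest coding transcript, and 14.9% with no length correction.

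Arpc2, of the structural core, was the steadiest member, at 1811 in the lowest mouse, a median of 1881 and 2106 in the highest. The other 7 mice lay between 1811 and 1945, below mouse 7. Arpc4, its partner in the core, ran from 418 through a median of 466 to 536. Arpc3, the subunit that contacts Arp3, ran from 651 through 795 to 897, with mouse 1 lowest and mouse 8 highest as for Arpc1a.

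Arpc1a, the isoform of the Arpc1 subunit found in most tissues, was at 420.4 in the lowest mouse, a median of 454 and 537 in the highest. Arpc1b was at 261 in the lowest mouse, a median of 344 and 409 in the highest. Mice 7 and 8 were lowest for Arpc1b, at 261 and 299, while mouse 8 was highest for Arpc1a.

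Arpc5 was at 308 in the lowest mouse, a median of 387 and 446 in the highest, and Arpc5l at 1599, 1744 and 2197. Mouse 2 held the highest Arpc5 and the lowest Arpc5l value.

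**Figure D1:**
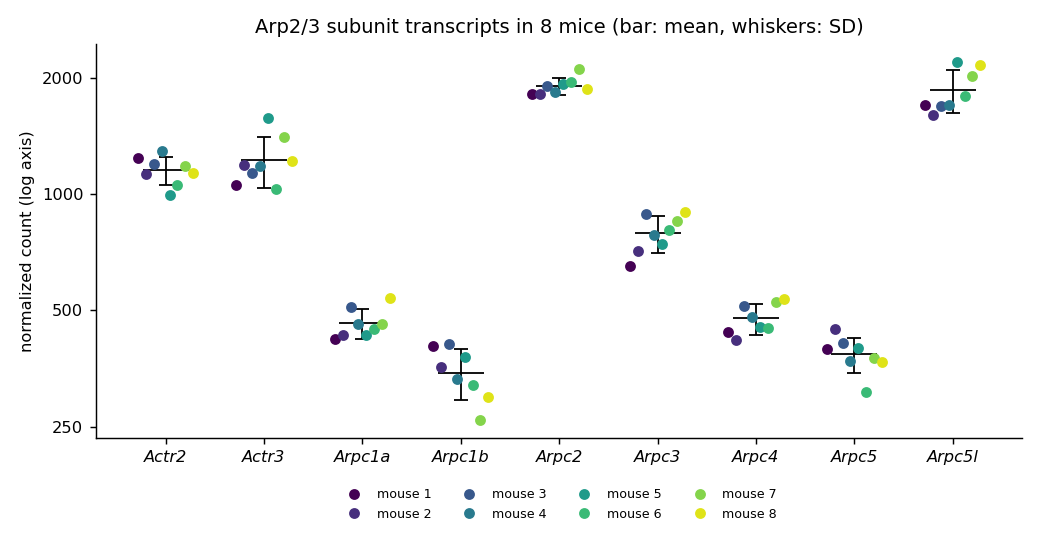
Normalized count (log axis) of each of the 9 Arp2/3 subunits in 8 mice; points are mice, coloured by mouse, horizontal bars are means and whiskers are SD. Mice 7 and 8 lie at the bottom of the Arpc1b column, at 261 and 299, and mouse 7 lies above the other 7 for Arpc2, at 2106.

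The spread of the subunits between mice was set beside that of other genes. With the deposited size factors, the median coefficient of variation (SD divided by mean) was 10.5% over the 9 subunits, against 15.6% over all tested genes and 12.2% over the 5219 tested genes within the subunits' range of means. With library totals in place of size factors these were 14.7%, 18.2% and 15.6%, and with TMM factors 11.1%, 15.6% and 12.2%. Arpc2 had the smallest at 5.14%, and 1.12% of tested genes had a smaller one. Arpc1b and Actr3 had the largest, both at 15.0%. The part expected from counting error was 5.42% for Arpc1b and 2.89% for Actr3.

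Levels of different genes can be set side by side only per length. Per kilobase of all annotated exon bases, the order of mean normalized counts was Arpc2 (934 ± 48.0), Arpc5l (413 ± 51.8), Arpc3 (287 ± 31.5), Actr3 (264 ± 39.5), Actr2 (221 ± 18.5), Arpc4 (205 ± 18.9), Arpc1a (180.2 ± 16.0), Arpc5 (169 ± 17.7) and Arpc1b (67.4 ± 10.1), each as mean ± SD over 8 mice. Arpc2 stood above Arpc5l, Arpc5l above Arpc3, Arpc4 above Arpc1a and Arpc5 above Arpc1b in 8 of 8 mice. The order held in 7 of 8 mice for Arpc3 over Actr3 and for Actr3 over Actr2. It held in 6 for Actr2 over Arpc4 and in 5 for Arpc1a over Arpc5. The differences between these neighbours were not tested.

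**Figure D2:**
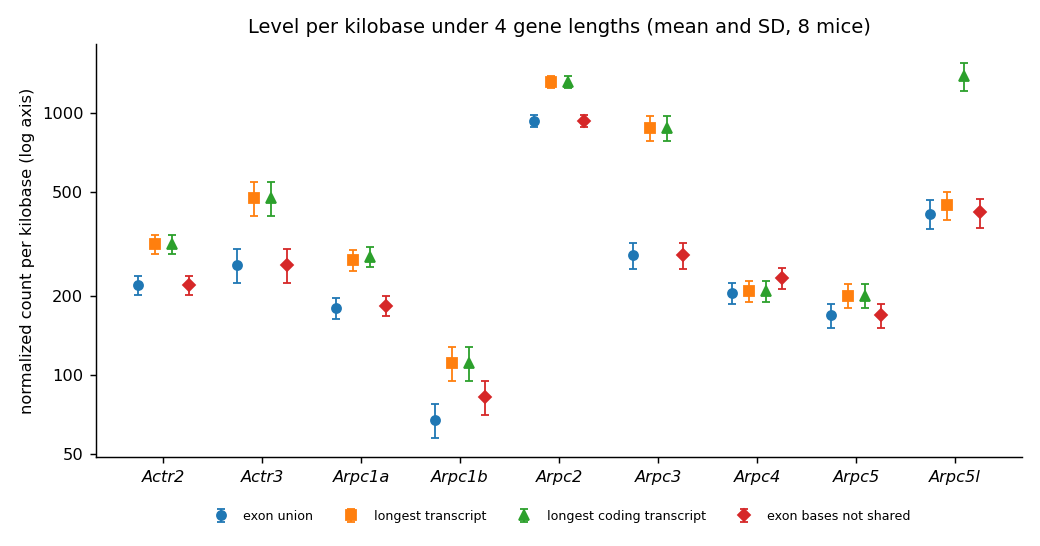
Mean normalized count per kilobase (log axis) of each subunit with SD over 8 mice, divided by 4 lengths: all exon bases, the longest transcript, the longest coding transcript, and exon bases not shared with another gene. Arpc1b is lowest under every length, while Arpc5l moves above Arpc2 when divided by its short coding transcript.

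The order in the middle of the list depended on the length used. Arpc4 stood above Arpc1a per kilobase of all exon bases, but Arpc1a stood above Arpc4 in 8 of 8 mice with the longest transcript and with the longest coding transcript. Arpc5l has 4498 exon bases but 1339 in its longest coding transcript, which raised its level from 413 to 1386 per kilobase, above Arpc2 at 1320 in 4 of 8 mice. With its longest transcript of 899 bases Arpc3 was at 881 per kilobase in place of 287, above Arpc5l at 445 with its own longest transcript. Arpc1b was the lowest of the 9 under all 4 lengths, below the next gene in 8 of 8 mice. Its exons share 931 of 5115 bases with Pdap1, a gene on the opposite strand at a mean normalized count of 1546. Whether the counting used strand is not given in the sources used here, so reads of the pair cannot be told apart there. Dividing the whole count of Arpc1b by its 4184 unshared bases, as if no read fell on the shared ones, gave 82.4 ± 12.4 per kilobase (SD, n = 8). Exons of Arpc4 share 283 bases with Ttll3, those of Arpc5l share 62 with Wdr38 and Rpl35, and those of Arpc1a share 50 with Kpna7.

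Within the paralogue pairs, Arpc1b was the minor form and Arpc5l the major one in every mouse. Arpc1b made up 27.2% ± 3.81 (SD, n = 8) of Arpc1a plus Arpc1b per kilobase, with 21.8% in mouse 8 and 22.1% in mouse 7 and 26.4% to 32.5% in the other 6. Under the other 3 lengths the mean share was 28.2% to 31.0%, and with no length correction it was 42.6%. In counts without length, the Arpc1b share was 35.7% in mouse 8 (exact Clopper-Pearson 95% interval 32.3% to 39.2%) and 49.0% in mouse 1 (45.4% to 52.5%), the extremes of the 8 mice. These intervals cover counting error only and are no test between mice.

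Arpc5l made up 70.8% ± 3.80 (SD, n = 8) of Arpc5 plus Arpc5l per kilobase, from 64.4% in mouse 2 to 74.8% in mouse 8. It was 87.2% with the longest coding transcript and 82.7% with no length correction, and above Arpc5 in every mouse under each length. The ratio of the highest to the lowest share was 1.16 for Arpc5l and 1.49 for Arpc1b, and depends on which paralogue of a pair is taken. In percentage points the SD of the shares was alike, at 3.80 for Arpc5l and 3.81 for Arpc1b.

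**Figure D3:**
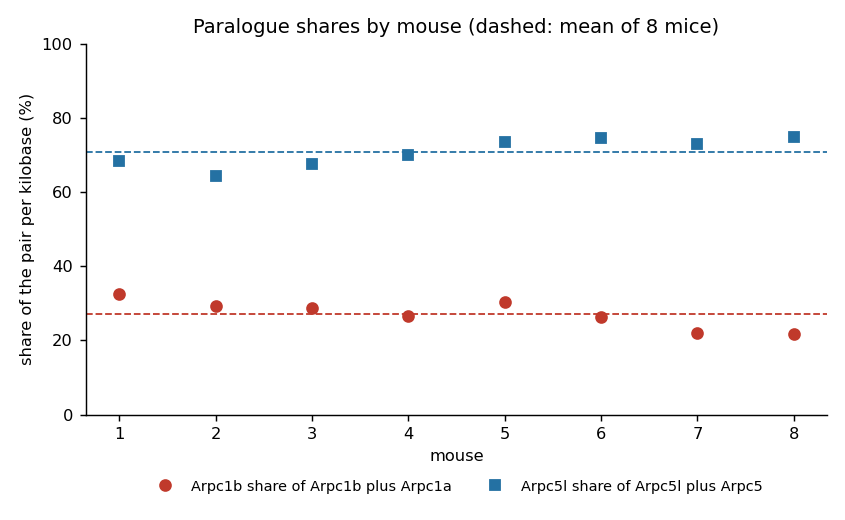
Share of the pair (percent, per kilobase of exon) taken by Arpc1b (circles) and by Arpc5l (squares) in each of 8 mice, with dashed lines at the means of 27.2% and 70.8%. Mice 7 and 8 have the lowest Arpc1b shares and mouse 2 the lowest Arpc5l share.

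A list of 8 other branched-actin regulators taken as leukocyte forms was described in the same way, per kilobase against a broadly expressed paralogue. The label leukocyte belongs to the list and was not tested here. Rac2, the blood-cell Rac, made up 0.756% ± 0.266 of Rac1 plus Rac2 (SD, n = 8). Nckap1l, the WAVE complex subunit of blood cells, made up 3.17% ± 0.980 with Nckap1, Was 3.89% ± 1.28 with Wasl, and Abi3 4.14% ± 1.44 with Abi1. Gmfg, a debranching factor, made up 7.57% ± 1.67 with Gmfb, Hcls1, the leukocyte cortactin, 10.5% ± 2.12 with Cttn, and Coro1a 18.5% ± 2.93 with Coro1b. Wipf1, which binds WASP, took 53.3% ± 4.18 with Wipf2. With all exon bases as the length, the Arpc1b share of 27.2% lay above 7 of these 8 shares and below that of Wipf1. The 8 shares were not computed under other lengths, which can move them. Per kilobase, Gmfg was at 10.1 with all exon bases and 43.2 with its longest coding transcript, and Gmfb at 123 and 201.

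Subunit levels were then set against markers of the other cells in the samples. Each mouse was given a macrophage, a fibroblast and an endothelium score, the mean over the markers of a list of the z-score of log2(normalized count + 1). The markers of a list did not all move together. Cd68 of the macrophage list was lowest in mouse 2 at 212, where the macrophage score was 0.39. Col1a1 of the fibroblast list was at 1733 in mouse 7, above its mean of 1553, where the fibroblast score was -0.76. Of the endothelium list, Esam and Egfl7 were highest in mouse 8, at 469 and 481, where Pecam1 and Cdh5 were lowest, at 1343 and 1014. Mice 7 and 8 had the lowest macrophage scores at -1.33 and -1.14, and the other 6 lay between -0.12 and 1.16. The macrophage and fibroblast scores moved together (r = 0.87, two-sided exact permutation p = 0.0059), so their relations are not separate evidence. Without the 2 mice farthest from the median score, r was 0.63.

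The Arpc1b share and the macrophage score gave r = 0.73 (two-sided exact permutation p = 0.040, adjusted p = 0.080 over 4 relations) and rho = 0.57 (exact p = 0.15, adjusted p = 0.20). Without mice 7 and 8, which stand apart in the score, r was -0.18 in the other 6 mice, so this relation rests on those 2 mice. With the fibroblast score r was 0.76 (exact permutation p = 0.029, adjusted p = 0.080) and rho was 0.79 (exact p = 0.028, adjusted p = 0.11), and r was 0.67 without mice 2 and 8. The Arpc5l share gave r = -0.69 with the fibroblast score (exact permutation p = 0.061, adjusted p = 0.081), with rho = -0.64 (exact p = 0.096, adjusted p = 0.19) and r = -0.34 without mice 2 and 8. With the macrophage score it gave r = -0.47 (exact permutation p = 0.24, adjusted p = 0.24), with rho = -0.40 (exact p = 0.33, adjusted p = 0.33) and r = -0.04 without mice 7 and 8. No share passed an adjusted p of 0.05, and the part of these cells in the shares was not tested.

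A limma fit of every tested gene on each score gave each subunit its place among all genes. Of the 9 subunits, 0 passed an adjusted p of 0.05 on the macrophage score, where 26 of 15135 genes (0.172%) passed. On the fibroblast score 0 of 9 passed, where 112 genes (0.74%) passed. On the endothelium score 0 of 9 passed, where limma called 0 genes (0%), with 1259 at an unadjusted p under 0.05. Of the called genes, 7 were among the 12 markers of the macrophage score itself and 3 among the 8 of the fibroblast score. On the endothelium score 0 of its own 8 markers were called, so 0 calls there say little of a relation. Unadjusted p-values under 0.05 were reached by 0, 3 and 2 subunits, against 2110, 2591 and 1259 of all 15135 genes.

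Arpc1b had the highest slope of the 9 on every score, in log2 units per unit of score. It was 0.17 ± 0.08 (SE, n = 8) on the macrophage score (limma adjusted p = 0.39), 0.16 ± 0.10 on the fibroblast score (adjusted p = 0.43) and 0.24 ± 0.09 on the endothelium score (adjusted p = 0.54). Arpc5 followed on the endothelium score at 0.20 ± 0.07 (limma adjusted p = 0.52). On the fibroblast score Arpc3 had a slope of -0.18 ± 0.06 (limma adjusted p = 0.19), Arpc5l of -0.17 ± 0.07 (adjusted p = 0.27) and Arpc4 of -0.16 ± 0.06 (adjusted p = 0.24). None of these reached the threshold after adjustment. The median slope of the 9 subunits was -0.08 on both the macrophage and fibroblast scores and -0.05 on the endothelium score, beside medians of -0.00, -0.01 and -0.01 over all tested genes. With library totals in place of size factors the subunit medians became 0.03, -0.06 and 0.07, beside 0.08, 0.04 and 0.10 over all tested genes, so the median subunit lay below the median gene under both scalings.

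**Figure D4:**
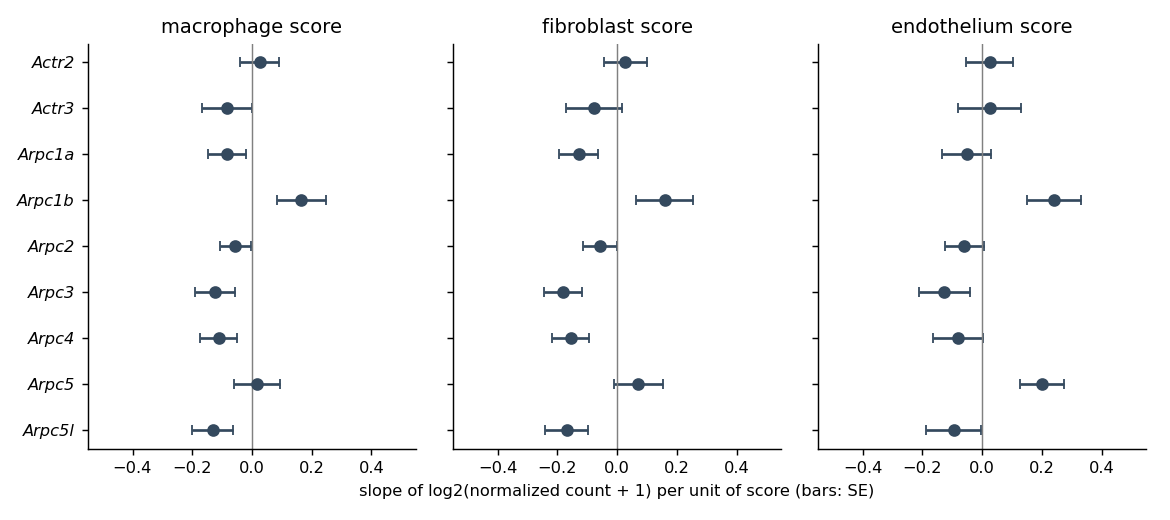
Slope of log2(normalized count + 1) per unit of the macrophage, fibroblast and endothelium score for each subunit, from limma over 8 mice, with SE as bars. Arpc1b has the highest slope in each panel, and 0 of 9 subunits passed an adjusted p of 0.05 in any panel.

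Activators, partners and inhibitors of the complex were taken from a list of 31 genes, of which 28 were tested. None of the 28 passed an adjusted p of 0.05 on the macrophage, fibroblast or endothelium score by limma, and 5, 8 and 2 had an unadjusted p under 0.05, beside 13.9%, 17.1% and 8.32% of all tested genes. Of the 8 leukocyte paralogues 7 were tested, all but Was. On the macrophage score Nckap1l had a slope of 0.35 ± 0.10 (SE, n = 8, limma adjusted p = 0.19) and Rac2 of 0.43 ± 0.13 (adjusted p = 0.22). The slope was 0.26 for Coro1a, 0.24 for Wipf1, 0.19 for Hcls1, -0.07 for Gmfg and -0.11 for Abi3, with limma adjusted p from 0.31 to 0.87. Arpc1b had a slope of 0.17 on the same score, and the differences were not tested. By group on the fibroblast score, slopes above and below 0 numbered 5 and 2 for nucleation-promoting factors, 5 and 3 for the WAVE complex, 3 and 0 for the WIP family, and 6 and 0 for inhibitors and debranchers.

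Subunits differed in how they varied across the 8 mice. With the deposited size factors, Pearson r of log2(normalized count + 1) over the 36 pairs had a median of 0.11, with 19 pairs above 0. The highest values joined Arpc1a, Arpc3 and Arpc4. Arpc1a and Arpc3 gave r = 0.88 and rho = 0.98, Arpc3 and Arpc4 gave 0.87 and 0.88, and Arpc1a and Arpc4 gave 0.85 and 0.93. Without the 2 mice farthest in the first gene, the r of these pairs was 0.92, 0.89 and 0.80. Arpc5l and Actr3 gave r = 0.71 and rho = 0.57.

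Arpc1b had an r above 0 with Arpc5 alone, at 0.47, and its lowest r with Arpc2, at -0.64. The paralogues gave r = -0.27 for Arpc1a with Arpc1b and r = -0.24 for Arpc5 with Arpc5l. Without the 2 mice farthest in the first gene these were -0.87 and -0.30. With 1 mouse left out, r of Arpc1a with Arpc1b ran from -0.64 (mouse 3) to -0.031 (mouse 8), so its size rests on single mice. Arp2 and Arp3 transcripts gave r = -0.43, which was 0.20 without the 2 mice farthest in Actr2.

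**Figure D5:**
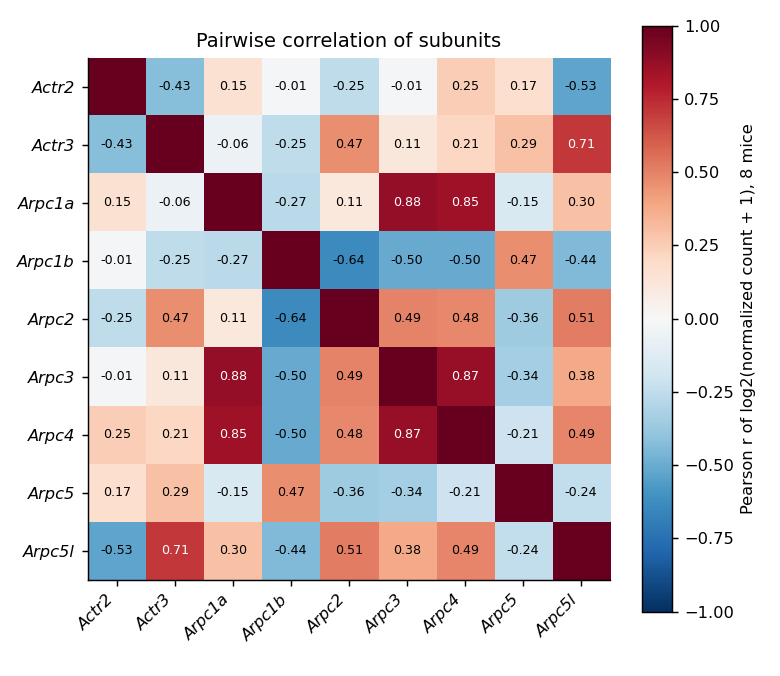
Pearson r of log2(normalized count + 1) between each pair of the 9 subunits over 8 mice with the deposited size factors, on a scale from -1 (blue) to 1 (red). Arpc1a, Arpc3 and Arpc4 form the reddest block, at 0.85 to 0.88, and the Arpc1b row is mostly blue; with library totals in place of size factors all 36 pairs were above 0.

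These values were read against all genes. An exact permutation test of r with Arpc1a over the other 15134 tested genes called 0 genes (0%) at an adjusted p of 0.05, with 2233 at an unadjusted p under 0.05. Arpc3 (exact permutation p = 0.0031, adjusted p = 0.16) and Arpc4 (exact permutation p = 0.0047, adjusted p = 0.18) were within the top 0.945% and 1.65% of genes by r. The same test with Arpc1b called 0 genes (0%), with 1381 at an unadjusted p under 0.05. The other 8 subunits had a median r of 0.13 with Arpc1a and -0.36 with Arpc1b, beside -0.00 and -0.02 over all genes.

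These correlations depend on how libraries are scaled. When counts were divided by library totals in place of size factors, the median r of all genes with Arpc1a rose to 0.48 and that over the 36 subunit pairs to 0.51, with all 36 above 0. Arpc3 and Arpc4 then passed with Arpc1a (r = 0.95 for both, exact permutation adjusted p = 0.036 and 0.038), as did 677 of the 15134 genes (4.47%), and Arpc1a with Arpc1b turned to r = 0.40.

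The 5 genes with the highest r to each Arpc1 paralogue were listed. Closest to Arpc1a were Rpl23a (r = 0.97, rho = 0.83) and Rpl34 (r = 0.96, rho = 0.76), which encode proteins of the large ribosomal subunit, and the processed pseudogenes Gm7730, Gm46209 and Gm11221 (r = 0.96 to 0.97), whose reads may be shared with near-identical copies. Closest to Arpc1b were Nnmt, a nicotinamide methyltransferase (r = 0.95, rho = 0.93), Adcyap1r1, a neuropeptide receptor (r = 0.95, rho = 0.95), Sinhcaf (r = 0.94, rho = 0.98), Plekha8 (r = 0.94, rho = 0.95) and the ubiquitin ligase Lnx1 (r = 0.94, rho = 0.93). These 10 genes were picked for their r over the 8 mice, so their r is a description with no test.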

How the data were processed

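RNA-seq libraries (Universal Plus mRNA-Seq with NuQuant, poly(A) RNA, NextSeq) were made from muscle of 8 mice. Per the labels and the study's methods, the authors used FastQC, fastp and STAR with GRCm38.p6 and counted reads with summarizeOverlaps in R. The annotation release, strand setting and treatment of multi-mapped reads are not given in the sources used here.

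The deposited values are the signal of each gene as read counts divided by 1 size factor per library (0.906 to 1.20). Whole reads were recovered from them: 100% of the values above 0 came out whole within 0.01 read. Library totals and minima refer to those reads. The table held no column outside the 8 mice.

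Fits used log2(value + 1), genes reaching 10 counts in each of the 8 libraries, limma 3.58.1 (trend) and Benjamini-Hochberg adjustment over all 15135 genes. edgeR 4.0.16 (quasi-likelihood on recovered reads) was an alternative. Correlations used all 40320 pairings of 8 mice, two-sided. Gene lengths and positions came from GENCODE M21 (GRCm38), where 55227 of 55487 identifiers matched, and promoters from RefSeq. Scripts were tested on simulated data.

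The rule for named genes took the 9 subunits, Actr3b, pathway genes that passed a test (0 did) or are leukocyte paralogues, and the 5 genes nearest to Arpc1a and to Arpc1b by r. The broad paralogues in the shares, Myh4, the score markers given by name and genes overlapping subunit exons are named outside it. The members and lists were chosen with earlier results of these data known. The correlations of all genes with Arpc1a and Arpc1b, the motifs, and the coding-transcript and unshared-exon lengths were chosen after seeing the data. Alternatives were TMM factors, library totals, a pseudocount of 5, genes with at least 1 count in 1 library, library total as a covariate, other lengths and leaving out each mouse. No 2 libraries agreed within sampling noise (chi-square per degree of freedom 16.1 to 119 over 28 pairs).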

Additional observations from a re-analysis of the deposited data

Results flagged for a closer look

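Among 24 values of 8 mice each (subunits, Actr3b, leukocyte paralogues, shares and scores), 2 had 1 mouse far from the others by Dixon's 95% criterion, where chance gives about 1.2. Arpc2 was at 2106 in mouse 7 and between 1811 and 1945 in the other 7, a gap of 0.546 of the range. Without mouse 7 its mean normalized count was 1869.8. Gmfg was at 43.2 in mouse 2 and between 19.1 and 29.8 in the other 7, a gap of 0.557 of the range, at counts of 18 to 40 per library.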

How the results depend on the processing

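The 9 subunits gave 0 calls on each score under all 14 alternatives, including edgeR. The number of genes called on the macrophage score was 48 with library totals, 50 with at least 1 count in 1 library, 10 by edgeR and 86 with the library total as a covariate, with leave-one-out counts of 0 (mouse 1, 7 or 8 left out) to 58 (mouse 4 left out). On the fibroblast score it was 68 by edgeR, with leave-one-out counts of 0 (mouse 8) to 185 (mouse 3). On the endothelium score it was 0 throughout the leave-one-out fits. With 7 mice, r between the Arpc1b share and the macrophage score was 0.60 (mouse 7 left out) to 0.92 (mouse 4), that with the fibroblast score 0.65 (mouse 8) to 0.83 (mouse 4), and that of the Arpc5l share with the fibroblast score -0.82 (mouse 3) to -0.56 (mouse 2). The unadjusted exact permutation p of the Arpc1b share was then above 0.05 in 7 of 8 and 4 of 8 of these sets, at most 0.15 and 0.11, and that of the Arpc5l share was 0.023 with mouse 3 left out.

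The median pairwise r of the subunits was 0.51 with library totals and -0.030 (mouse 6 left out) to 0.22 (mouse 5) with 7 mice. The mean Arpc1b share was 42.6% with no length correction, and the Arpc5l share 82.7% with none and 87.2% with the longest coding transcript. With library totals r of Arpc1a with Arpc1b was 0.40, against -0.27. The causes were not tested. Of 300 values over all results and alternatives, 261 stayed on the same side of their threshold or within their spread and 39 did not. Of the 39, 36 belong to the counts of called genes, the shares and their correlations, and the median pairwise r. The rest are r of Arpc1a with Arpc1b, Arpc3 and Arpc4 under library totals. No paired analysis was possible because there is 1 group. Among the leukocyte paralogues, Was, Gmfg and Rac2 had counts of 9 to 40 per library, which limits their precision.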
